A study of Mus musculus with 5 samples.

Results

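Libraries labelled as sorted CD4 T cells from the colon of light-treated and of control mice were compared across every named gene of the 2 count tables. Of 10283 genes with a count anywhere in the series, 7945 had a count in at least 1 colon library and made up the comparison. In the colon control the rows of Cd4, Cd3d, Cd3e, Cd3g and Foxp3 repeat those of another table, and these genes did not enter. The colon light group came from mice that received a 980 nm laser (1.22 W, 80% duty, 4 square centimetres of spot), in sessions of 5 minutes given every 2 days. The colon control group carries the label control, and lymph node control and lymph node light groups of the same design are used below as context. All 4 groups are labelled as CD4 T cells of a study of light treatment in autoimmune colitis, with 1 library each. Strain, sex, age and the number of animals behind a library are not given in the sources used here. Libraries were made from poly(A) RNA with an oligo-dT probe that carries a sample barcode and a molecular identifier.

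CD4 T cells recognise antigen through a receptor made of alpha and beta chains, and on activation they switch on immediate early genes, build ribosomes and remodel their actin skeleton. In colitis, CD4 T cells of the gut wall include effector cells that release cytokines such as interferon gamma and chemokines such as CCL5. Light at 980 nm is absorbed mainly by water, and warming, calcium-permeable channels and the respiratory chain are among the routes discussed for its action on cells. For that reason heat-shock, channel and respiratory genes were among the groups examined.

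The colon control was the shallower of the 2 libraries. Its deposited counts summed to 435847, against 1959296 in the colon light library. A molecule had been counted in many of the 384 (control) or 382 (light) barcode columns of its table. Writing each gene as a sum of shared column patterns gave about 7103 molecules in the control and 47897 in the light library. Levels are given as counts per 1000000 summed counts (CPM). Intervals are exact 95% intervals for counting error only, on independent counts, which are summed counts divided by 72.4 (control) or 52.3 (light) columns per molecule. A floor of 3 independent counts corresponded to 501 CPM in the control and 80.2 CPM in the light library. With 1 library a side no difference could be checked against replicates, and p-values were not computed. In such bulk libraries fewer cells of a type and less RNA per cell cannot be told apart.

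The labelled cell type was checked on 10 T-cell markers that the repeated rows do not touch. In the colon control 4 of the 10 had a count, each with 1 molecule: Trbc2, Thy1, Lat and Lck. In the colon light library 9 of 10 had a count, with 138 molecules in all. The list took 0.0429% of control counts (0.00738 to 0.135) and 0.284% of light counts (0.233 to 0.344), against 0.908% and 0.708% in the lymph node control and light libraries. Trac, a constant segment of the receptor alpha chain, and Trbc1, of the beta chain, were at 0 in the control and held 9 and 14 molecules in the light library. Of the left-out rows, Cd3d, Cd3e, Cd3g and Cd4 could be read in the light library, where they were sums of its own column patterns. Cd3d stood at 199 CPM, Cd3e at 121, Cd3g at 184 and Cd4 at 186. In the colon control the same 4 rows missed that library's patterns by 0.444 to 0.726 of their size. The Foxp3 row was not such a sum in any library and could not be read. It missed the patterns by 0.888 of its size after light and by 0.928 in the colon control. For the lymph node this share was 0.923 without and 0.782 with light. The control also shared 5 barcodes with the light table and held 0 of the 16 barcodes of a deposited barcode sheet, whereas the light table held 16. Every ratio below rests on this control.

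The 2 colon libraries differed in which genes they held, although genes counted in both took most of the counts of each. The control had a count for 2361 genes and the light library for 6730, and 1146 genes were counted in both. Genes counted only in the control took 34.5% of its counts, and 80.9% of those 1215 genes rested on 1 molecule. Genes counted only in the light library numbered 5584 and took 34.9% of its counts. Of the 10 most abundant genes of each library 2 were shared, and of the 50 most abundant 7 were shared. Noncoding RNA divided the libraries as well. The long noncoding gene Gm12374 on chromosome 4 (37249403 to 37332515, mm10) took 17.7% of control counts and 2.47% of light counts. CT010467.1, the 45S ribosomal RNA gene on chromosome 17, took 5.02% of control counts and 28.4% of light counts. Mitochondrial ribosomal RNA was at 1.12% in the control and 7.05% in the light library.

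Most genes with enough counts were higher in the light library. Of 200 genes with at least 20 independent counts over both libraries, 153 (76.5%) were at least 2-fold higher in light and 29 (14.5%) at least 2-fold lower, and 18 lay within 2-fold. The median log2 ratio was 2.17. The filter acts unevenly, since the light library is deeper: 139 of the 153 higher genes had under 3 independent counts in the control, and 49 of the 200 were at 0 there. Among the 37 genes with at least 3 independent counts in each library, 14 were higher and 15 lower, with a median of 0.45. With the light library thinned to the control's depth, 43 genes passed the filter, of which 16 were higher and 24 lower, with a median of -2.69. Fewer genes pass at that depth, so these are not the counts of the 200 genes. The split also depended on the scaling. Median-of-ratios size factors moved every log2 ratio by 1.34 and TMM by 1.30, both upwards, giving 169 higher and 25 lower genes. Centring on the compared genes with a count in both libraries, an alternative added after the values were seen, moved ratios down by 1.89 and gave 64 higher and 46 lower, so that 58.2% of called genes were higher in place of 84.1%. The interval excluded 0 for 81 of the 153 higher genes and for 28 of the 29 lower genes. The plot of gene levels in the colon libraries shows the higher genes as a compact cloud and the lower genes as a spread of isolated points.

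**Figure D1:**
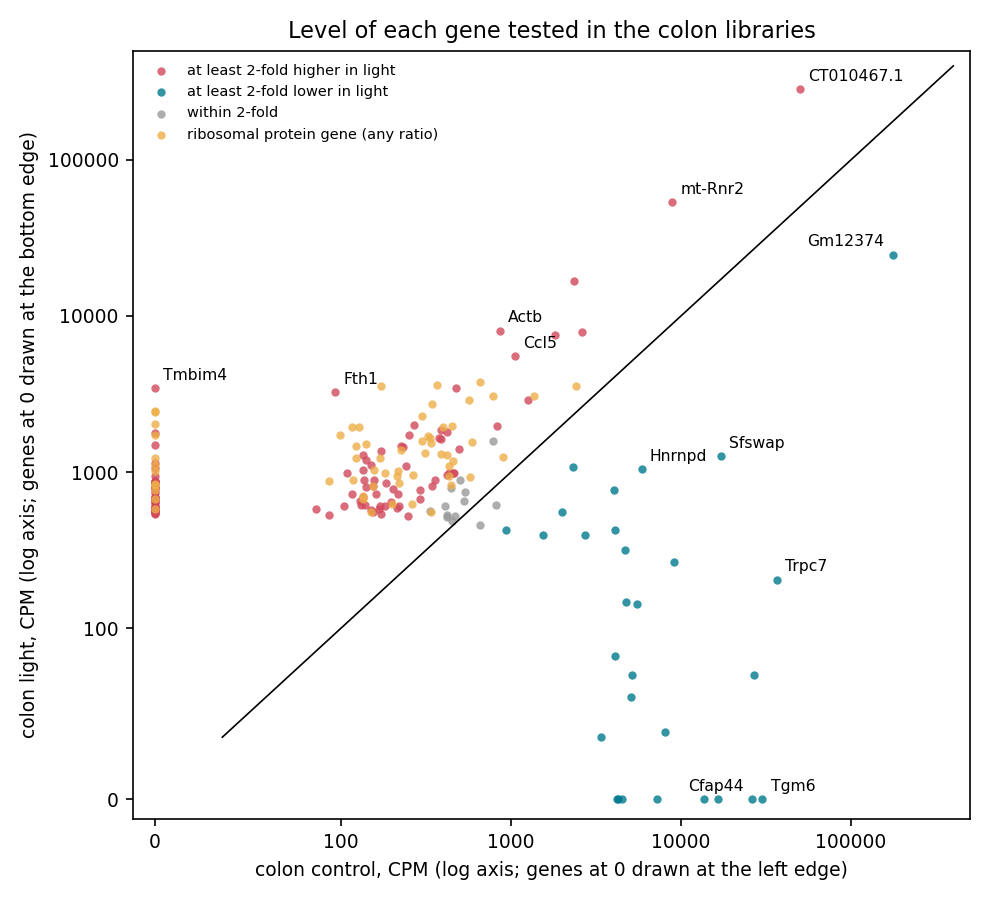
Level of the 200 compared genes in the colon control (x axis, CPM) and colon light library (y axis, CPM), both on log axes with genes at 0 drawn at the edge. Each point is a gene, the line marks equal levels, and the 153 higher genes lie above the line while the 29 lower genes lie below it, 8 of them at 0 in the light library.

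The lower genes formed the distinctive content of the colon control. Together the 29 took 43.7% of control counts, 3.24% of colon light counts, 3.18% of lymph node control counts and 0.898% of lymph node light counts. Their median level was 5052 CPM in the colon control against 143, 88.7 and 50.6 CPM in those other libraries. Gm12374 was the most abundant of the 29 in the colon control. It alone took 17.7% of colon control and 2.47% of colon light counts. Its lymph node levels were 24525 CPM without and 3001.5 with light. Of the 29, 8 were at 0 in colon light, 13 in untreated and 9 in light-treated lymph node. The genes were chosen for their high level in the colon control, so its high values are a description. In the light library 14 of the 29 had under 3 independent counts. With 1 control library, the treatment and the library cannot be told apart.

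The 12 lower genes named by the interval rule are known from very different tissues. Trpc7, a calcium-permeable TRP channel, stood at 36595 CPM in the colon control (256 molecules) and 205 after light (10 molecules), while the lymph node levels were 148 CPM without and 196 with light. Its log2 ratio was -7.33 (-8.74 to -6.46). Tgm6, a transglutaminase, was at 30046 CPM in the colon control, from 216 molecules, and at 0 in the other 3 libraries. Against the floor of 3 independent counts it was at least 375-fold lower in light. Cfap44, a protein of the cilium and sperm flagellum, was at 26142 CPM and at 0 elsewhere, at least 326-fold lower. The colon control was thus the single high library for both.

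Lrig2, a membrane protein with leucine-rich repeats, was at 27035 CPM in the colon control and 50.1 after light, while the lymph node had 0 without and 199.7 with light. Its log2 ratio was -8.53 (-12.29 to -7.15). Pomk, a kinase that acts on the sugar chains of dystroglycan, was at 16448 CPM in the colon control and 0 in the other 3, at least 205-fold lower. Sema6a, an axon guidance protein, was at 13649 CPM in the colon control, 63.8 in the light-treated lymph node and 0 in the other libraries, at least 170.2-fold lower. The vomeronasal receptor Vmn1r189 stood at 7213 CPM, at least 89.9-fold lower, and was at 0 in the other 3 libraries. Tet1, an enzyme that oxidises methylated cytosine, was at 8062 CPM against 21.5, a log2 ratio of -7.51 (-15.02 to -5.78), and it was at 0 in both lymph node libraries. The other 4 were Alg9, Zfp26, Fam120b and Csdc2, between 4227 and 5181 CPM in the control and at or below 50.1 CPM in light.

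The high control levels came with many recovered molecules on many column patterns. The molecules are recovered from the same counts as the levels, so their number restates the level. Trpc7's 256 molecules lay on 155 of the 317 column patterns found in that library, Tgm6's 216 on 136, Lrig2's 190 on 112 and Cfap44's 188 on 118. Gm12374 lay on 246. The plot of named genes by library sets the 4 levels of each gene side by side.

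**Figure D2:**
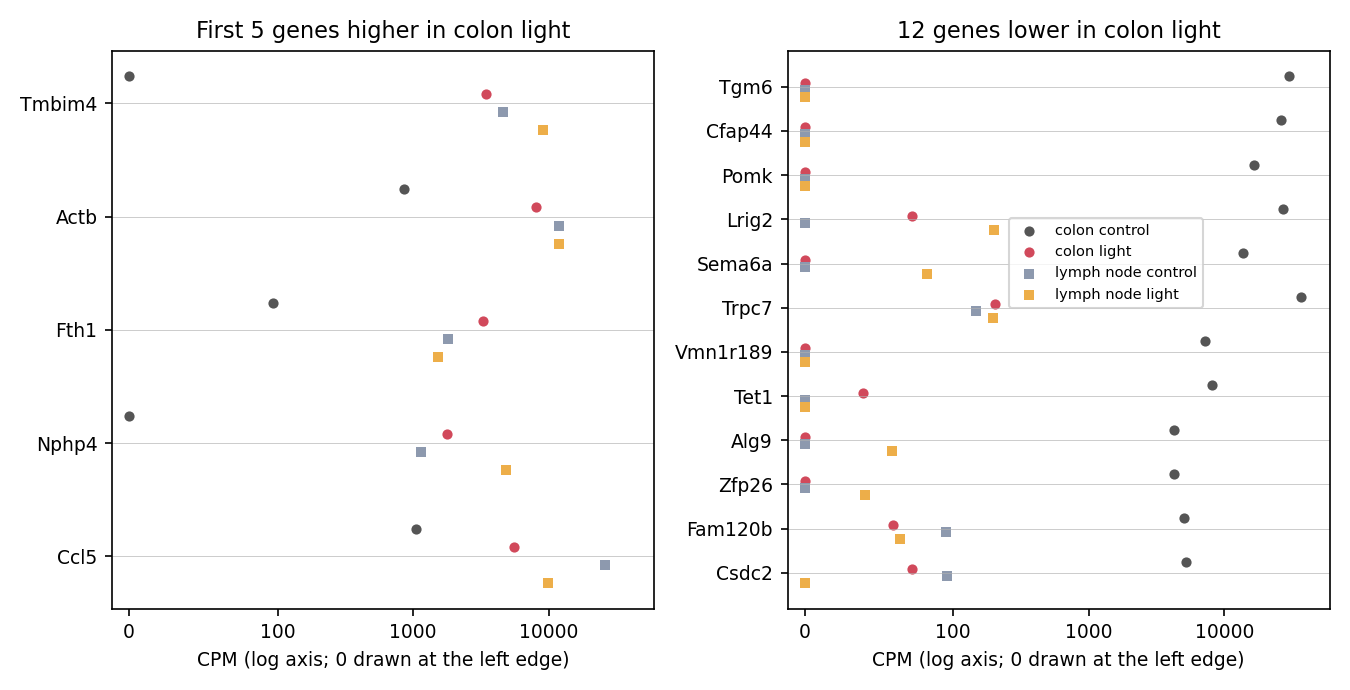
CPM (log axis, 0 drawn at the left edge) of the first 5 higher and all 12 lower genes in the order of the interval rule, in the 4 libraries, 1 point per library. On the right the colon control lies far above the other 3 libraries for all 12 genes, from 4227 to 36595 CPM, and on the left it is the lowest of the 4 for all 5 genes.

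Other lower genes also had a count in the light library. Sfswap, a splicing regulator, stood at 17202 CPM in the control (129 molecules) and 1269 in light (63 molecules), a log2 ratio of -3.74. Its levels of 3237 and 2467 CPM in the lymph node control and light libraries lay between them. Smad4, the shared mediator of TGF-beta signals, was at 4098 CPM against 66.4, a log2 ratio of -5.53 (-8.64 to -4.10). Its light level lay under the floor of 80.2 CPM. Hnrnpd, an RNA-binding protein that speeds messenger decay, was at 5862 against 1040 CPM, a log2 ratio of -2.47 (-3.19 to -1.79). Cdk14, a cyclin-dependent kinase, was at 2320 against 1072 CPM, a log2 ratio of -1.10 (-2.03 to -0.12). The sign of the Cdk14 ratio depends on the scaling, since median-of-ratios and TMM each moved every ratio upwards by more than 1.10.

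The lower genes were longer than the other compared genes, which the filter limits to those with many counts. The median length from first to last exon was 42.6 kb for the 29 lower genes, 4.22 kb for the 153 higher genes and 5.40 kb for all 200, beside 22.3 kb for all 7945 genes with a count. Genes counted in a single library did not show this difference, with medians of 21.6 kb in the control and 21.9 kb in light. Ribosomal protein genes are short and numerous in the higher set. Without them the higher genes had a median of 5.69 kb and the compared genes of 11.1 kb. Counted over molecules, the median gene length was 46.3 kb in the control and 3.95 kb in the light library. Leaving out the 5 most abundant genes of each library gave 31.4 and 12.1 kb. The plot of gene length in the genome shows the lower genes to the right of the others over most of their range.

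**Figure D3:**
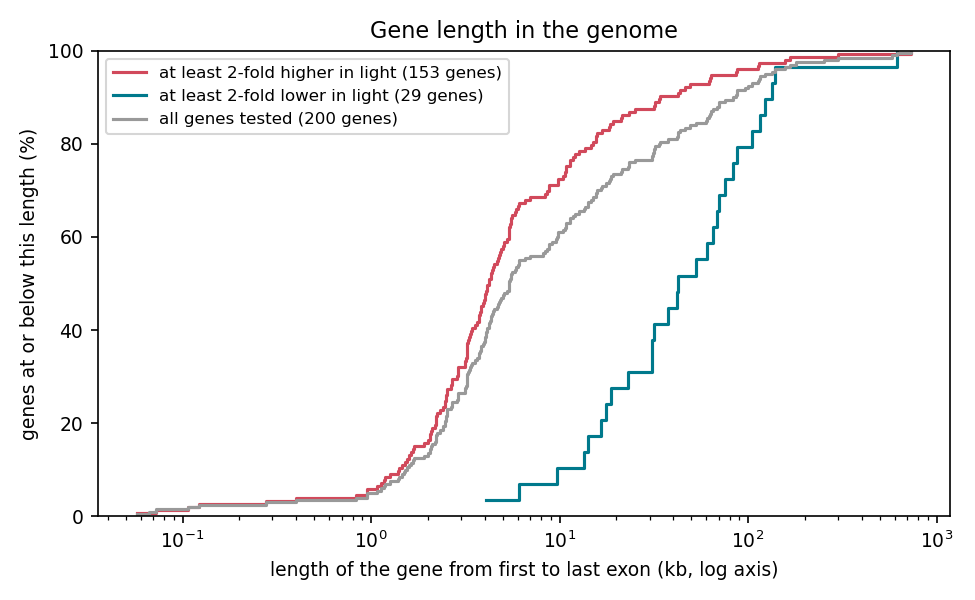
Share of genes at or below a given length in the genome (x axis, kb, log scale) for the 153 higher, 29 lower and 200 compared genes. The curve of the lower genes reaches 50% at about 42.6 kb and that of the higher genes at 4.22 kb.

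Promoters of the higher genes were rich in CG pairs for their base content, as were those of all genes with a count. Those of the lower genes were near the level of all promoters. In the 300-base windows of the RefSeq promoter table (250 bases before a start and 50 after, build GRCm38.p6), the median ratio of observed to expected CG was 0.53 for 20 lower genes with a window, 0.78 for 110 higher genes, 0.76 for 139 compared genes and 0.50 for all 20595 genes with a window in that table. A ratio of at least 0.6 was reached by 9 of the 20 lower genes (45%), 77.3% of the higher and 71.9% of the compared genes, and by 42.8% of all genes with a window. Over the 5724 genes with a count in a colon library and a window, the median was 0.76 and 70.3% reached 0.6. Ribosomal protein genes carried part of the share of the higher genes, which was 69.1% without them. Below are 4 promoters that show this range, the first 2 named genes of each direction with a single start in the table: each is the 250 bases before the start, 5′ to 3′ on the gene's strand, with each CG in capitals (CG reads the same on both strands).
Prkcsh, higher in light, chr9:22002738-22002987, plus strand: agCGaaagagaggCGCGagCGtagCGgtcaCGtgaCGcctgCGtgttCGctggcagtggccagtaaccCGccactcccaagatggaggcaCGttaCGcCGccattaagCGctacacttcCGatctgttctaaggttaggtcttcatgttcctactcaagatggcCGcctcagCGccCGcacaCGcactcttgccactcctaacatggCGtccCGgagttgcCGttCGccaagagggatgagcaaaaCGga
Malat1, higher in light, chr19:5802673-5802922, minus strand: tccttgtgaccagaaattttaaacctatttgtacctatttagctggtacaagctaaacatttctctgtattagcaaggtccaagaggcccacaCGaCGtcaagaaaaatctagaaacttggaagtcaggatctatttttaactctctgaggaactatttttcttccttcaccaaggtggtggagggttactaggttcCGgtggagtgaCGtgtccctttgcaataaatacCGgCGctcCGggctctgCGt
Cfap44, lower in light, chr16:44394549-44394798, plus strand: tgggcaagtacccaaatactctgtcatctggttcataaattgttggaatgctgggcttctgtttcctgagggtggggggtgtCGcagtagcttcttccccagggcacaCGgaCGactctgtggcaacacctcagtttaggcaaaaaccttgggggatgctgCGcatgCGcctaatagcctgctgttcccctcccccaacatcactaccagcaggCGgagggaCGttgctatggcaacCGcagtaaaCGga
Lrig2, lower in light, chr3:104511919-104512168, minus strand: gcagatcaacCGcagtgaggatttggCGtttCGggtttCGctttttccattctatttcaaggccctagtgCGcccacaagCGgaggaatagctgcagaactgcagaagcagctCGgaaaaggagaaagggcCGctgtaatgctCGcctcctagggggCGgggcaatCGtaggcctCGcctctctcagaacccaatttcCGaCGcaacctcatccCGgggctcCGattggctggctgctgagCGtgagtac
They hold 24, 8, 9 and 17 CG pairs in that order. Their ratios of observed to expected CG over these 250 bases were 1.15, 0.60, 0.51 and 0.94. Lrig2, a lower gene, lay above Malat1, a higher gene, so the medians did not separate the sets gene by gene.

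The first higher genes by the interval rule include actin, ferritin and nuclear RNA genes that many cell types use. Actb, which encodes beta-actin, stood at 860.1 CPM in the colon control (8 molecules) and 8067 after light (422 molecules), and the lymph node levels were 11847 CPM without and 11990 with light. Its log2 ratio was 3.20 (2.01 to 4.83). Fth1, the heavy chain of the iron store ferritin, was at 92.2 CPM in the control, from 1 molecule, and 3254 in light, a log2 ratio of 4.83 (2.01 to 14.23). Its lymph node levels were 1809 and 1536 CPM. For Actb the colon control lay below the other 3 libraries, and the same held for Fth1. Tmsb4x, which binds free actin, was at 2629 against 7897 CPM (1.58, 0.86 to 2.42, or -0.31 when centred on the compared genes). Malat1, a nuclear noncoding RNA, was at 1803 against 7552 CPM (2.05, 1.20 to 3.10).

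Several higher genes were at 0 in the control. Tmbim4, a membrane protein linked to protection from cell death, held 177 molecules in light, at 3451 CPM, and was at least 6.89-fold higher against the floor. Nphp4, a protein of the ciliary base, was at 1784 CPM and at least 3.56-fold higher, and Prkcsh, a subunit of glucosidase II in the endoplasmic reticulum, at 1491 CPM and at least 2.98-fold higher. All 3 were also present in both lymph node libraries, between 1115 and 9049 CPM. Mir6236 stood at 1056 CPM in colon light, at 0 in both control libraries and at 121 CPM in the light-treated lymph node, so that its highest level was in colon light. The floor of 3 independent counts was 264 CPM in the lymph node control and 142 CPM in the lymph node light library. Its lymph node levels, both under the floor, thus show no difference with light.

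Ribosomal protein genes were the largest group among the higher genes. In the control 56 of 85 members had a count, with 138 molecules in all, and in light 82 had a count, with 4764 molecules. Their share was 1.93% of control and 9.58% of light counts, against 13.9% and 11.4% in the lymph node control and light libraries, and the log2 ratio of the summed counts was 2.31 (2.04 to 2.59). Of the 60 that passed the filter, 55 were at least 2-fold higher, 5 were within 2-fold and 0 were lower, beside 76.5% higher over all compared genes, and the interval lay above 0 for 36 of the 55. Their median was 2.31 beside 2.17 over all compared genes, and the summed ratio was 0.42 when centred on the compared genes. Rps14, the member with most control molecules, stood at 2398 CPM in the control (20 molecules) and 3536 in light (0.56, -0.23 to 1.46), while Rps15a stood at 170.6 CPM (1 molecule) and 3569 (4.21, 1.91 to 9.60). Rps16 was at 0 in the control and had 131 molecules in light. Translation factors, the proteins that start and extend peptide chains, had 9 of 24 members with a count in the control and 24 in light, and 5 of 5 that passed the filter were higher, where 76.5% of all compared genes were. Their summed ratio was 2.28 (1.43 to 3.32), or 0.39 when so centred, with Tpt1 at 2.84 (0.48 to 8.23).

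T-cell receptor and actin genes were also higher in light. Signalling components of the receptor had 8 of 22 members with a count in the control and 21 in light, at 12 against 265 molecules, with a summed log2 ratio of 1.66 (0.76 to 2.75), which became -0.23 when centred on the compared genes. Both members past the filter were higher, beside 76.5% of all compared genes, Ptprc (the phosphatase CD45) at 2.09 (-0.03 to 6.16) and Trbc2 at 2.93 (0.16 to 11.02). Cd6, a co-receptor, held 4 molecules in the control and 7 in light, a log2 ratio of -2.03 (-4.61 to 0.33). Actin and motility genes summed to 2.10 (1.63 to 2.61), or 0.21 when so centred. Of 9 compared members 8 were higher, against the same 76.5%, with Lcp1 at 0.28 within 2-fold.

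Effector and differentiation genes rested on few control molecules. Ccl5, a chemokine of effector T cells, stood at 1052 CPM in the colon control (9 molecules) and 5544 after light (269 molecules), and the lymph node levels were 25792 CPM without and 9835 with light. The log2 ratio in the colon was 2.37 (1.28 to 3.82). Nkg7, a protein of cytotoxic granules, was at 196.0 against 638 CPM (1.59, -0.76 to 6.40), and Ifng, interferon gamma, at 357 against 441 CPM (0.29, -1.73 to 3.32). The effector and Th1 list summed to 2.21 (1.34 to 3.29), or 0.32 when centred on the compared genes. Th17 genes were at 0 in the control and held 59 molecules in light, led by Rora, a nuclear receptor of that lineage, with 23. Regulatory and inhibitory receptor genes summed to 1.40 (-0.37 to 4.22) on 3 control molecules, or -0.48 when centred on the compared genes.

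The ratio of genes of resting T cells changed sign with the scaling or depth. Naive and central memory genes held 10 molecules in the control and 66 in light, a summed log2 ratio of 0.16 (-0.94 to 1.49). It was 1.5 with median-of-ratios and 1.46 with TMM scaling, -1.73 when centred on the compared genes and -1.19 with light thinned to the control's depth. Ccr7, the receptor that guides cells to lymph nodes, held 6 of the 10 control molecules, at 797.9 CPM, and was at 0 in the other 3 libraries. Ltb, Ms4a4b and Il7r were at 0 in the control and held 11, 16 and 9 molecules in light. Th2 genes were lower at -1.91 (-3.88 to -0.01), through Il1rl1, the receptor of interleukin 33, which held 5 molecules in the control and 0 in light.

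Activation, inflammatory and antigen presentation genes were higher in light as well. Immediate early genes summed to 2.32 (1.24 to 3.74) on 8 against 271 molecules, or 0.43 when centred on the compared genes. Btg1, which restrains proliferation, was at 269.8 against 1987 CPM (2.78, 0.80 to 6.49), and Jun, a part of the AP-1 factor, at 0 against 679 CPM. NF-kB and inflammatory genes summed to 1.73 (0.63 to 3.16), or -0.16 when centred on the compared genes, with Nfkbia, the inhibitor of NF-kB, at 2.31 (-0.57 to 10.72) and Il1b at 1.71 (-0.77 to 7.17). Class I presentation genes summed to 2.16 (1.09 to 3.55), or 0.27 when so centred, with B2m at 2.53 (0.41 to 6.73). Class II genes summed to 3.16 (1.03 to 7.54), or 1.28 when so centred, on 1 control molecule, of Cd74. Interferon-response genes were at 1.08 (0.19 to 2.16), or -0.80 when so centred. Stat2, a factor of that response, held 6 of the list's 11 control molecules and 1 in light.

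Groups tied to warming, redox and respiration followed the same course. Heat-shock and chaperone genes summed to 2.08 (1.23 to 3.11) on 12 against 391 molecules, or 0.19 when centred on the compared genes. Of 5 compared members 4 were higher, close to the 76.5% of all compared genes. Hsp90ab1, a cytosolic chaperone, stood at 389.7 CPM in the control and 1859 in light (2.19, 0.47 to 5.00), Hspa5, of the endoplasmic reticulum, at 133.7 and 1279 CPM (3.05, 0.49 to 9.73), and Hspa8 at 442.7 and 794.7 CPM (0.81, -0.93 to 3.40). Redox and iron genes summed to 3.38 (1.83 to 5.84), or 1.5 when so centred, and without Fth1 to 2.24 (0.50 to 5.12). Mitochondrially encoded messengers summed to 2.62 (1.24 to 4.64), nuclear genes of complex IV to 2.46 (1.08 to 4.46) and other nuclear respiratory genes to 1.25 (0.48 to 2.16). When so centred these became 0.73, 0.57 and -0.64. Apoptosis genes summed to 2.93 (1.61 to 4.81), or 1.04 when so centred, and without Tmbim4 to 1.49 (0.13 to 3.38). The list of TRP and calcium channel genes was lower at -3.94 (-4.32 to -3.59), but Trpc7 held 256 of its 266 control molecules, and without Trpc7 the ratio was 0.92 (-0.17 to 2.29).

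Another 4 lists were lower in light, and in each a single gene held most control molecules. The cilium list stood at -3.75, and without Cfap44, which held 188 of its 190 control molecules, at 3.44 (1.04 to 9.24). The TGF-beta list stood at -3.07, and all 27 of its control molecules were of Smad4, so that without it the control was at 0. Chromatin genes stood at -1.25 (-1.70 to -0.79), and at 0.087 with median-of-ratios and 0.053 with TMM scaling, where Tet1 held 48 of 60 control molecules. Olfactory and vomeronasal receptors, which T cells are not known to use, were at -4.59 (-5.47 to -3.90) on 83 against 25 molecules. Vmn1r189 held 47 of the 83. For that list the ratio without Vmn1r189 was -3.34. Of 51 receptors 21 had a count in the control and 21 in light, and 39 had a count in at least 1 of them, so most were not shared. Olfr1323 held 11 control molecules and Olfr95 held 5, and both were at 0 in light.

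Because a few abundant genes set the library total, each list was also taken relative to the summed counts of ribosomal protein genes, a scale chosen after the values were seen. Of 25 lists with at least 3 independent counts in each library, 13 had an interval that included 0, 12 lay below 0 and 0 lay above. That rule leaves out lists with fewer control counts. Some of these, such as the Th17, redox and iron, and class II lists, had a larger summed ratio than ribosomal proteins, and others a smaller one. The rule therefore limits which lists could lie above 0, and the lack of such lists is not a result about them. Effector and Th1 genes came to 88.7 counts per 1000 ribosomal protein counts in the control and 83.6 in light (log2 ratio -0.09, -1.02 to 0.85). Heat-shock genes came to 94.8 and 81.4 per 1000 (-0.22, -1.13 to 0.69), immediate early genes to 56.2 and 57.6 (0.04, -1.12 to 1.19) and actin genes to 327 and 282 (-0.21, -0.75 to 0.33). These intervals still allow differences of about 2-fold for the smaller lists. T-cell receptor signalling genes came to 86.6 and 55.5 (-0.64, -1.60 to 0.31).

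Of the 12 lists below 0 on that scale, 6 fell under the floor in the control once the member with most control counts was left out, 4 then included 0, and 2 stayed below. The 2 were the olfactory and vomeronasal receptors, at -5.71 (-6.58 to -4.84), and the channel list, at -1.38 (-2.52 to -0.23). Interferon-response genes stood at -1.22 (-2.16 to -0.27), and without Stat2 at 0.23 (-1.26 to 1.71). Other nuclear respiratory genes stood at -1.05 (-1.88 to -0.22), and without Ndufb11 at -0.75 (-1.67 to 0.17). The plot of gene lists on both scales shows this grouping.

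**Figure D4:**
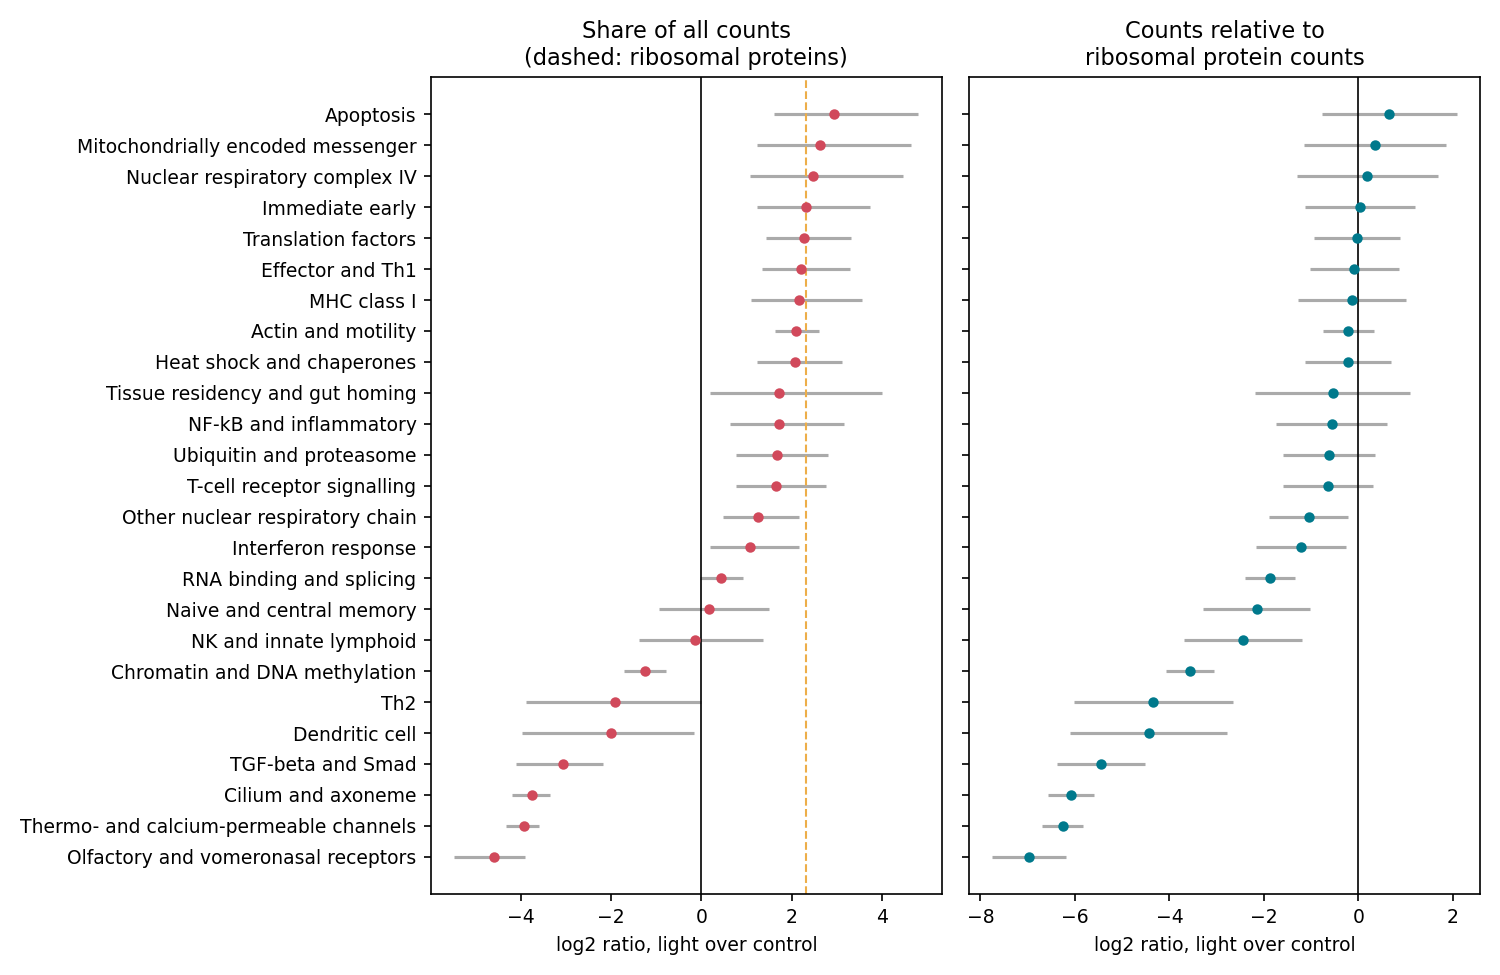
Log2 ratio of light over control for the 25 gene lists with at least 3 independent counts in each colon library, as a share of all counts with no centring (left) and relative to ribosomal protein counts (right). Points are ratios and bars 95% intervals for counting error, and on the right 13 bars cross 0 while 12 lie below it.

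Markers of other cell types were sparse in both colon libraries apart from monocyte and macrophage genes in light. That list took 0.283% of light counts (0.231 to 0.342) and 0.0461% of control counts (0.00867 to 0.140), on 136 against 4 molecules, and 0.0873% and 0.0739% in the lymph node libraries. In light 13 of its 19 members had a count, led by Lyz2, a lysozyme of myeloid cells, at 1199 CPM (60 molecules) against 140.7 in the control. In the light library the monocyte and T-cell lists took like shares, 0.283% and 0.284%. The class II, NF-kB and heat-shock results above stand beside this myeloid signal, and its part in them was not tested. Natural killer and innate lymphoid markers were at 0.105% in the control and 0.0955% in light, B and plasma cell markers at 0.0355% and 0.0180%, and colon epithelium markers at 0.0304% and 0.00184%. Mast cell markers were at 0 in both. Dendritic cell markers were at 0.0849% in the control and 0.0195% in light, where 6 of the 7 control molecules were of Ccr7. No cell type list held more than 7 molecules in the control, and none of the 12 lower genes named by the interval rule belongs to any of the 14 cell type lists.

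**Figure D5:**
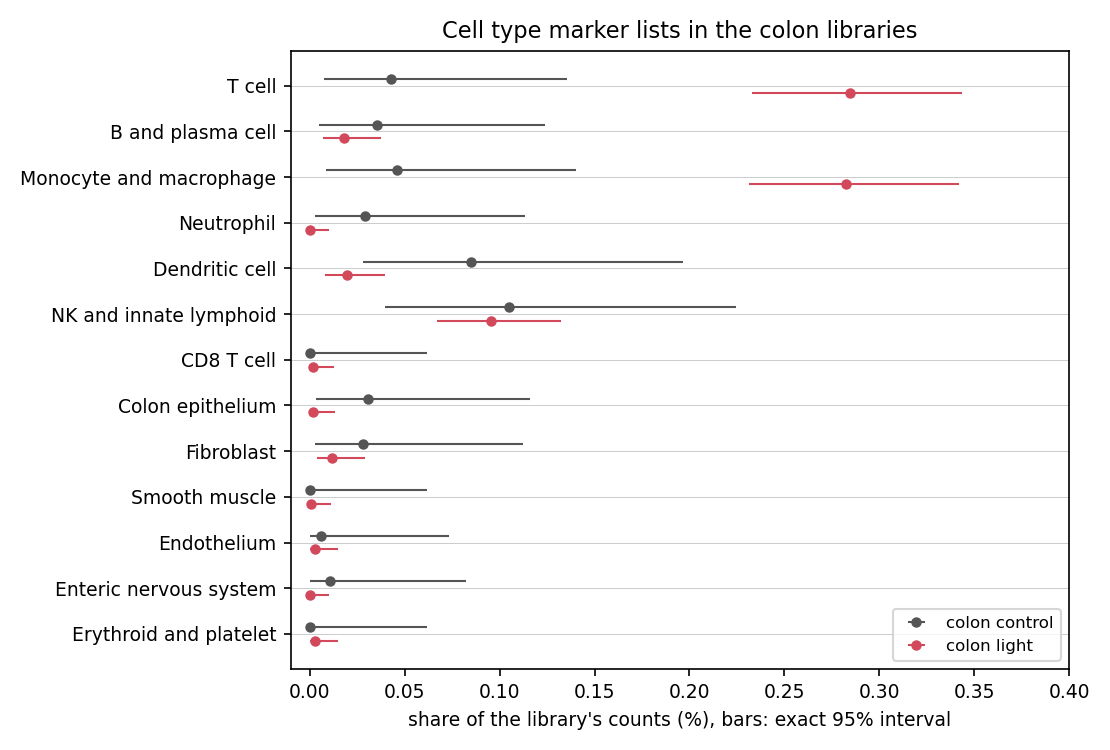
Share of library counts (x axis, %) taken by 13 cell type marker lists with a count in the colon control (grey) and colon light (red) libraries, with exact 95% intervals for counting error. T-cell and monocyte lists are at 0.284% and 0.283% in light, and all control lists lie at or below 0.105%.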

How the data were processed

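Poly(A) RNA of sorted CD4 T cells was reverse transcribed with a probe of a 7-mer sample barcode, an 8-mer molecular identifier and oligo(dT), per the labels' protocols. FastQC and STAR 2.5.1a are named in the submitters' processing notes with build mm10. For the step that counted reads, no tool is given in the sources used here. Per the file headers, the deposited files hold counts per gene and barcode column, whole numbers that were not normalized. Lines with no gene name (2, both in lymph node files) were not used. Gene models were matched to GENCODE M21 for 7823 of 7945 genes and promoter windows for 5724.

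Columns are overlapping sums of the same molecules, so they are neither cells nor replicates. A linear program on genes with values of 0 and 1 gave single-molecule column patterns, and non-negative least squares wrote each gene as a sum of them. The sum was exact for 97.6% of genes in the colon control and 98.5% in the colon light library. Genes with values of only 0 and 1 fit by construction, so these shares do not measure the fit of the other genes. Genes with 1 molecule made up 75.7% of genes in the colon control and 45.9% in the colon light library. Such molecules give depth per gene. CPM was computed from summed counts without Foxp3, Cd3d, Cd3e, Cd3g and Cd4, whose colon control rows equal those of the lymph node control at 382 of 382 positions (Foxp3 381).

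Genes with at least 20 independent counts over both libraries were compared, with a prior count of 0.5, and a difference of 2-fold was called. Intervals are Clopper-Pearson intervals at 95%, and those relative to ribosomal proteins are normal intervals on the log scale. Named genes are the 12 per direction whose interval end nearest to 0 was farthest from 0, without pseudogenes, unnamed models, receptor segments and genes of mitochondrial DNA, ribosomal proteins or haemoglobin, plus the 5 most abundant genes of each colon library and members of the lists. Some higher genes that this rule names are not reported here. The members, the 44 gene lists (30 pathway, 14 cell type) and the rules were chosen with earlier results of these data known. Results were recomputed under 12 other choices of scaling, filter, prior, depth, total and columns, and 3 more chosen after seeing the data. Molecule recovery and intervals were checked on simulated data. The simulated molecules were drawn from the recovered column patterns, so that check takes the pattern model as given and cannot test it. A pooled sample that held only a barcode sheet was not used. Computation used scipy 1.17.1 and numpy 2.4.6 with pandas 2.3.3 under Python 3.11.15, and plots used matplotlib 3.10.9.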

Additional observations from a re-analysis of the deposited data

Results flagged for a closer look

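Ccl5 moved in opposite directions with light in the colon and the lymph node, with both intervals off 0 when scaled to the total. Its log2 ratio of light over control was 2.37 in the colon (1.28 to 3.82) and -1.39 in the lymph node (-1.65 to -1.13). The colon light level of 5544 CPM lay below both lymph node levels, 25792 and 9835 CPM, so the opposite sign came with the colon control at 1052 CPM from 9 molecules. Rpl37a, a ribosomal protein gene, showed the same pattern, at 2.31 in the colon (0.46 to 5.55) and -1.04 in the lymph node (-1.80 to -0.32). Its levels were 323 and 1697 CPM in the colon control and light libraries and 3082 and 1483 CPM in the lymph node. Both colon ratios depend on the scaling: centred on the compared genes, an alternative chosen after seeing the data, Ccl5 was at 0.49 (-0.61 to 1.93) and Rpl37a at 0.43 (-1.43 to 3.66). Both of these intervals include 0. With 1 library per group the difference between the tissues was not tested.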

How the results depend on the processing

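No paired analysis was possible because each group has 1 library and the result comes from no test. The number of genes at least 2-fold higher and lower, 153 and 29, became 3617 and 1803 with no filter, 5458 and 1858 with deposited sums taken as raw counts, and 18 and 6 with at least 100 independent counts. It became 14 and 15 among genes with at least 3 independent counts in each library, and 64 and 46 when centred on the compared genes, both added after seeing the data. With the light library thinned to the control's depth 16 were higher and 24 lower among 43 genes, around a median of -2.69. Fewer genes pass under the stricter filters by construction, and otherwise the cause was not tested. Prior count, total, repeated rows, odd-numbered columns and counting each molecule once kept both counts within 1.5 times.

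Several list ratios turned. Under median-of-ratios and TMM scaling the chromatin list gave 0.087 and 0.053 and fibroblast markers 0.24 and 0.20. Centring on the compared genes gave -0.31 for Tmsb4x, -0.23 for receptor signalling, -0.48 for regulatory genes, -0.17 for tissue residency, -0.16 for NF-kB, -0.80 for interferon response, -0.64 for other respiratory genes, -0.21 for ubiquitin and -0.75 for erythroid markers. Without the largest member channel genes gave 0.92 and cilium genes 3.44. Th2 and TGF-beta genes gave 3.26 and 4.20, values set by the prior count over a control at 0, with lower interval ends of -2.02 and -0.80 and no upper end. Depth limits the control: 75.7% of its genes rest on 1 molecule, and a gene under 501 CPM there cannot be told from 0.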
